A study of Rattus norvegicus with 8 samples.

Results

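The TNF superfamily of cytokine ligands and receptors was read in vein grafts and control veins of Sprague Dawley rats. Its members were taken from the deposited gene count table by name: every row named Tnfsf or Tnfrsf with a number, together with Tnf, Lta, Ltb, Ltbr, Cd40, Cd40lg, Cd27, Cd70, Fas, Faslg, Eda and Eda2r. This found 42 of the 37209 gene rows, 18 ligands and 24 receptors. The rule itself used names only and no measured value, but the members were chosen with earlier results of these data known. The study held 4 vein grafts (grafts 1 to 4) and 4 control jugular veins (controls 1 to 4), all collected 1 week after the operation. In this operation a cut carotid artery is turned back over short cuffs so that a vein can be joined into it, with the opposite jugular vein serving as control. The labels give no age, sex, gene change or drug treatment for either group, and nothing in them says that the animals were pooled.

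Ligands of this family are mostly membrane proteins of trimeric form, made by leukocytes and stromal cells, and some are cut off the surface as soluble cytokines. Receptors with a death domain can recruit adaptors that switch on caspases, and most other receptors bind TRAF adaptors, which lead to NF-kappaB signalling. In the vessel wall TNF is known as a driver of endothelial activation, and several other members act as costimulatory pairs between T cells and antigen-presenting cells.

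The controls held between 5981520 and 14267490 counts each, the grafts between 10533451 and 16061189, and 3 counts corresponded to 0.182 to 0.560 CPM (counts scaled to a common library size). One label field names prefrontal cortex as the source of the RNA, against the tissue labels. In every library the smooth muscle markers summed to at least 1820 CPM and the endothelial markers to at least 1510 CPM, while the 10 brain markers summed to 41.9 to 651 CPM across the controls and 15.7 to 63.5 CPM across the grafts. Of these, Gad2 and Neurod6 had no counts. Mbp, a myelin gene that peripheral nerve also uses, made up most of the sum (37.1 to 647 CPM across the controls, 10.8 to 55.8 CPM across the grafts), Gfap reached 5.20 CPM and Camk2a 2.91 CPM, and the other 5 stayed below 1 CPM. The summed macrophage markers measured 317 to 522 CPM across the controls, against 3800 to 7100 CPM in the grafts, and 11 of 13 in the table rose. The summed T and NK cell markers measured 8.40 to 26.3 CPM across the controls, against 80.3 to 192 CPM in the grafts, and 14 of 16 rose. No macrophage or T and NK cell marker was at 0 in a whole group. The smooth muscle markers summed to 13100 to 21700 CPM across the controls, against 1820 to 3470 CPM in the grafts. Adipocyte markers were unequal among the controls, at 565, 875, 2585 and 3690 CPM in controls 1 to 4, against 136 to 177 CPM in the grafts. In such bulk samples, fewer cells of a type and less RNA per cell cannot be told apart, and the part of these cell mixtures in the differences below was not tested.

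Grafts held more transcripts of the TNF receptor Tnfrsf1b, of the TWEAK receptor Tnfrsf12a and of the costimulatory genes Tnfsf8, Tnfrsf14 and Tnfsf18, and fewer of the death ligand Tnfsf10. The calls for Tnfrsf14 and Tnfsf10 were lost in some of the alternative fits given below. Transcripts of Tnf itself were at or near 0 in every library. Of the 42 members, 31 held enough counts to be tested. Of these, 16 rose, 2 fell and 13 stayed above an adjusted p of 0.05 (Benjamini-Hochberg) in the quasi-likelihood test of edgeR. Over the 15464 genes tested, 42.3% were called, 21.0% as risen and 21.3% as fallen. With libraries scaled by their totals alone, 67.8% of the calls over all genes were rises, against 49.7% with the scaling used here, and over all genes the median log2 fold change moved from 0.01 to 0.23. Under that scaling 17 members rose and 1 fell. The median log2 fold change of the 31 tested members was 0.70. By role, the test covered 10 of the 18 ligands (5 rises, 2 falls) and 21 of the 24 receptors (11 rises, 0 falls). The remaining 8 ligands and 3 receptors held too few counts for a test. The filter admits a gene through 1 group alone, so members scarce in the controls could enter through the grafts. Tnfrsf8 (12, 3, 2 and 0 counts in controls 1 to 4) and Tnfrsf18 (5, 7, 5 and 0) are examples. Tnfrsf13c, with 31 counts over the controls and 9 over the grafts, was left out. The counts of rises and the median therefore depend in part on the filter. With no filter, 11 receptors rose and 0 fell. No receptor was lower with any tool run on all 8 libraries (edgeR, DESeq2 or limma voom), and at an unadjusted p under 0.05 edgeR had no receptor lower either. In 15 tested members the 4 grafts lay above the 4 controls and in 1 below them. Over all genes tested 20.8% lay above and 19.8% below, 40.6% in all. The members together took 0.0468% to 0.0539% of all counts in the controls and 0.0751% to 0.0978% in the grafts.

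**Figure D1:**
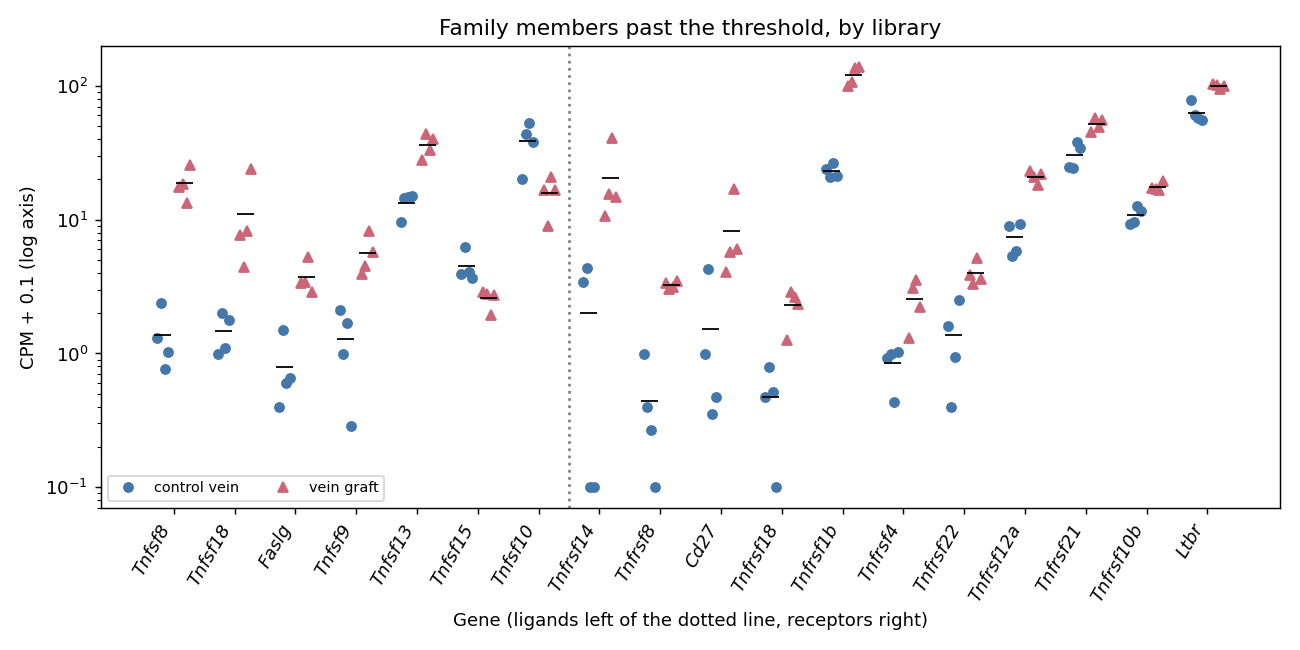
CPM of each library, with 0.1 added, on a log axis for the 18 members past the threshold, with controls as circles, grafts as triangles and the group mean as a line. Tnfsf10 and Tnfsf15 are the 2 members with lower grafts, and in Cd27 and Tnfsf10 the groups overlap.

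The stretches of DNA before the start of 4 members are shown because the first 3 belong to receptors that rose, while the fourth belongs to a ligand that stayed near 0. Each of the 4 holds a marked match, which several other risen members named below lack. The stretches are the 250 bases before the annotated gene start, from RefSeq on GRCr8, which is a later assembly than the one behind the counts. Capitals mark matches on either strand to the kappaB consensus, to the AP-1 motif TGANTCA and to GAGGAA, the core of the PU.1 motif (TTCCTC on the other strand).
Tnfrsf1b chr5:162387412-162387661 (- strand): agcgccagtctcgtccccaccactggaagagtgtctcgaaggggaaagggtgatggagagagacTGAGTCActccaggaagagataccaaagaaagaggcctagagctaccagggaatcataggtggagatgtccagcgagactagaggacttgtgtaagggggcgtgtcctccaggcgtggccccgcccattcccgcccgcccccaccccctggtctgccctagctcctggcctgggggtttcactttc
Tnfrsf8 chr5:162451621-162451870 (- strand): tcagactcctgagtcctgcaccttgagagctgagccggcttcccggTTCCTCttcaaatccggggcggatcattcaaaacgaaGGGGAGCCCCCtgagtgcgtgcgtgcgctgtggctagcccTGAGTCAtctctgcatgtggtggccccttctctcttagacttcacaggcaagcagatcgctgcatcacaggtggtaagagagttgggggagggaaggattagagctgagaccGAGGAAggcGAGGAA
Tnfrsf12a chr10:13213649-13213898 (- strand): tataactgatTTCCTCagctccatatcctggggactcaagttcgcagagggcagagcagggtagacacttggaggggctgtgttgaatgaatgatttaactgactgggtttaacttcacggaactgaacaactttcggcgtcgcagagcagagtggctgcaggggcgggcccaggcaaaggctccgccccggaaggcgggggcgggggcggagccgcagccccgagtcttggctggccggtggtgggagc
Ltb chr20:3634055-3634304 (- strand): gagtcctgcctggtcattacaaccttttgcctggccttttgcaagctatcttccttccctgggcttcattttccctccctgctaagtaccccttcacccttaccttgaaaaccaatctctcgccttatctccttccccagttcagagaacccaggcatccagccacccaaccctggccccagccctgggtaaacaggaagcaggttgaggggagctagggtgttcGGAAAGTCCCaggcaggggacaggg

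A promoter sequence was found for 32 of the 42 members by symbol. The kappaB consensus lay in 5 of these (15.6%), those of Fas, Lta, Ltb, Tnfsf14 and Tnfrsf8, against 6.33% of 33469 promoters of the same length. The AP-1 motif lay in 3 (9.38%), those of Fas, Tnfrsf1b and Tnfrsf8, against 6.34%. GAGGAA lay in 12 (37.5%) against 23.3%. Of the 12 risen members with a sequence, 1 held kappaB, 2 held AP-1 and 5 held GAGGAA. Among these 12, Tnfsf8, Tnfsf13, Faslg, Tnfrsf22, Cd27 and Tnfrsf4 held no match. The matches describe letters in a window. The 2 kappaB matches in the Tnfrsf8 promoter overlap each other, at positions -167 and -166 from the start, and its AP-1 match lies at -127. In the Tnfrsf1b promoter the AP-1 match lies at -186.

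The ligand genes at the head of the family had almost no counts. Tnf, the founding cytokine, had 1 count in control 4, 2 counts in graft 2 and 0 in the other 6 libraries. Lta, the soluble lymphotoxin, had 4 counts in graft 2, 1 in graft 4 and 0 in the other 6 libraries. Ltb, which anchors lymphotoxin to the membrane, had 2 in graft 2, 1 in graft 3 and 0 in the other 6. Tnfsf11, the RANK ligand that drives osteoclasts, had 0 counts in all 8 libraries, which allows up to 0.182 to 0.560 CPM per library. A count of 0 in every library was common in the table, at 12226 of 37209 rows (32.9%). Tnf, Lta and Ltb lie next to each other on GRCr8, and their nearest protein-coding neighbours on either side were counted: Nfkbil1 had 12 to 80 counts in the controls and 72 to 120 in the grafts, and Lst1 had 0 to 7 and 50 to 102.

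Both TNF receptors were measured, and they parted. Tnfrsf1b, the receptor found mostly on leukocytes and endothelium, measured 23.7, 20.6, 26.3 and 21.1 CPM across controls 1 to 4, against 99.7, 106, 136 and 138 CPM in grafts 1 to 4. The groups were far apart relative to the spread within them. Its span on GRCr8 overlaps the gene LOC103692519, as does that of Tnfrsf8, so some reads could be shared. The rise was 2.39 ± 0.15 on the log2 scale (SE), or 5.23-fold, with an edgeR adjusted p of 2.00e-05. Tnfrsf1a, the death domain receptor that nearly all cells carry, measured 186, 199, 148 and 163 CPM across the controls, against 181, 179, 164 and 191 CPM in the grafts. Its groups overlapped, and the log2 fold change of 0.04 had a 95% interval from -0.23 to 0.31. The number of Tnfrsf1b counts per Tnfrsf1a count was 0.128, 0.104, 0.178 and 0.130 across the controls, against 0.551, 0.595, 0.830 and 0.724 in the grafts. On the log2 scale this ratio was higher in the grafts by 2.33 (exact two-sided permutation test, p = 0.0286, the smallest that 4 against 4 libraries allow; 0.0429 adjusted over 3 planned ratios). A ratio within a library does not depend on how libraries are scaled.

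TWEAK and its receptor showed a similar split. Tnfsf12, which encodes the ligand TWEAK, measured 36.3, 40.7, 25.9 and 32.3 CPM across the controls, against 29.6, 31.1, 34.6 and 32.1 CPM in the grafts, and the groups overlapped. The 95% interval of its log2 fold change ran from -0.43 to 0.26. Tnfrsf12a, the receptor that injured tissue is known to raise, measured 8.84, 5.28, 5.77 and 9.15 CPM across the controls, against 22.9, 20.6, 18.1 and 21.6 CPM in the grafts. The lowest graft was above the highest control. The rise was 1.53 ± 0.21 log2 units (SE; adjusted p by edgeR = 0.000495). Per count of Tnfsf12 there were 0.130 to 0.283 counts of Tnfrsf12a in the controls and 0.522 to 0.773 in the grafts, a log2 difference of 1.62 (exact two-sided permutation test, p = 0.0286; 0.0429 adjusted over the 3 ratios).

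**Figure D2:**
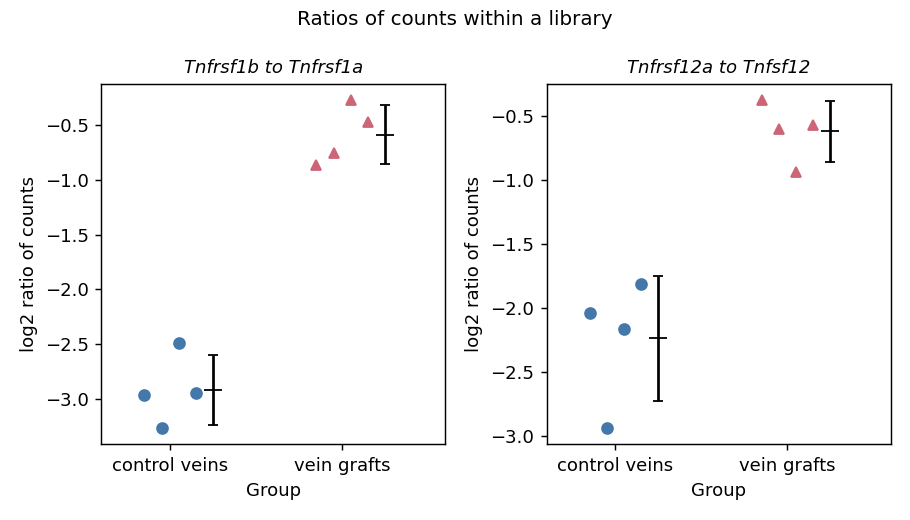
Log2 ratio of counts of 2 members within each library, with controls as circles, grafts as triangles and the mean ± SD beside them. For both ratios the 4 grafts lie above the 4 controls, with a difference of the means of 2.33 for Tnfrsf1b to Tnfrsf1a and 1.62 for Tnfrsf12a to Tnfsf12.

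The third planned ratio, of Tnfsf11 to its soluble decoy receptor Tnfrsf11b (osteoprotegerin), was not computed because Tnfsf11 had no counts. Tnfrsf11b measured 15.8, 30.4, 27.1 and 33.0 CPM across the controls, against 23.9, 60.5, 18.2 and 32.7 CPM in the grafts. The groups overlapped, with graft 2 above all other libraries, and the 95% interval of the log2 fold change ran from -0.47 to 1.18. Tnfrsf11a, the signalling receptor RANK, measured 24.5 to 38.3 CPM across the controls, against 21.0 to 33.0 CPM in the grafts and did not pass (95% interval from -0.50 to 0.34).

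Several members are known as costimulatory ligands and receptors, which pass signals between T cells and antigen-presenting cells. Tnfsf8, the ligand of the receptor Tnfrsf8 (CD30), measured 1.20, 2.29, 0.669 and 0.933 CPM across controls 1 to 4, against 17.5, 18.5, 13.1 and 25.7 CPM in grafts 1 to 4. Each graft was several times higher than the highest control. The rise was 3.86 ± 0.38 log2 units (SE; adjusted p by edgeR = 7.19e-05), or 14.5-fold. Tnfrsf8 measured 0.899, 0.299, 0.167 and 0 CPM across the controls, against 3.28, 2.93, 3.04 and 3.40 CPM in the grafts. It rested on 2 to 12 counts in controls 1 to 3 and 0 in control 4. It rose by 2.99 ± 0.58 (SE; edgeR adjusted p = 0.00289). Without control 1 its rise was 4.07, and without controls 3 and 4 it was 2.34, past the threshold in both.

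Tnfsf18, the ligand of Tnfrsf18 (GITR), measured 0.899, 1.89, 1.00 and 1.68 CPM across the controls, against 7.53, 4.36, 8.16 and 23.8 CPM in the grafts. Graft 4 was the highest by far, and all grafts were above all controls. It rose by 3.04 ± 0.56 log2 units (SE; adjusted p by edgeR = 0.00220), and by 2.32 without graft 4 (edgeR adjusted p = 0.00239). Tnfrsf18, a receptor abundant on regulatory T cells, measured 0 to 0.697 CPM across the controls, against 1.15 to 2.78 CPM in the grafts, a rise of 2.40 ± 0.56 (SE; edgeR adjusted p = 0.00734). Of the 27 ligand and receptor pairs listed for the family, both partners were tested in 10, and both rose in 2 of these, the pairs of Tnfsf8 and of Tnfsf18. In the other 17 pairs a partner had too few counts. With no filter on low counts, Tnfsf14 and Cd70 also passed, which adds 3 pairs, those of Tnfsf14 with Ltbr and Tnfrsf14 and of Cd70 with Cd27.

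Tnfsf9, another costimulatory ligand, measured 2.02, 0.896, 1.59 and 0.187 CPM across the controls, against 3.82, 4.43, 8.16 and 5.59 CPM in the grafts, a rise of 2.12 ± 0.49 (SE; edgeR adjusted p = 0.00708). Its receptor Tnfrsf9, raised on activated T cells, measured 1.00 to 1.57 CPM across the controls, against 0.486 to 1.95 CPM in the grafts and did not pass (95% interval from -0.90 to 1.08). Whether the responses of ligand and receptor differed was not tested. Tnfrsf4 (OX40) measured 0.335 to 0.933 CPM across the controls, against 1.21 to 3.44 CPM in the grafts, a rise of 1.72 ± 0.46 (SE; edgeR adjusted p = 0.0136), which was not past the threshold without controls 3 and 4 (edgeR adjusted p = 0.0740). Its ligand Tnfsf4 had 5 counts over the controls and 4 over the grafts.

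Cd27, a receptor of T and B cells, measured 0.899, 4.18, 0.251 and 0.373 CPM across the controls, against 3.94, 5.63, 17.0 and 5.91 CPM in the grafts. Control 2 was above graft 1, so the groups overlapped, and graft 3 was the highest. The rise of 2.46 ± 0.79 log2 units (SE; adjusted p by edgeR = 0.0315) was not past the threshold without control 1, control 3, control 4 or graft 3 (edgeR adjusted p from 0.0651 to 0.0939) or without controls 3 and 4 (1.70, edgeR adjusted p = 0.143). Without control 2 it was 3.89. Its ligand Cd70 had 2 or 3 counts in each graft and 0 in every control, at least 2.58-fold higher in the grafts taking 3 counts for all controls together as the floor.

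Tnfrsf14 (HVEM), a receptor of lymphocytes and myeloid cells, measured 3.30, 4.28, 0 and 0 CPM across controls 1 to 4, against 10.5, 15.4, 40.3 and 14.7 CPM in grafts 1 to 4. Controls 1 and 2 had 44 and 43 counts and controls 3 and 4 had 0, and graft 3 was the highest library. It rose by 3.32 ± 0.93 log2 units (SE; adjusted p by edgeR = 0.0173). The call was lost without graft 3 (2.77, edgeR adjusted p = 0.0511) and with DESeq2 (adjusted p = 0.0539), and the rise was 2.41 without controls 3 and 4, 3.98 without control 2 and 4.95 with limma voom. Its ligand Tnfsf14 had 0 counts in the controls and 4, 8, 16 and 4 in grafts 1 to 4, at least 7.50-fold higher against the floor of 3 counts. The summed T and NK cell markers were 192 CPM in graft 3 against 80.3 to 109 CPM in the other grafts, and their part in these values was not tested.

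Ltbr, the lymphotoxin beta receptor of stromal and myeloid cells, measured 78.6, 60.7, 56.9 and 55.4 CPM across the controls, against 102, 101, 95.1 and 99.3 CPM in the grafts. All grafts were above all controls, within a narrow range. It rose by 0.66 ± 0.13 log2 units (SE; adjusted p by edgeR = 0.00293). Cd40, the receptor that T cell help acts on in antigen-presenting cells, measured 2.05 to 5.19 CPM across the controls, against 3.60 to 7.76 CPM in the grafts and did not pass (95% interval from -0.32 to 1.24). Its ligand Cd40lg had 7 counts over the controls and 42 over the grafts, too few to be tested.

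Death ligands and their receptors moved in different ways. Tnfsf10 (TRAIL) measured 19.9, 43.4, 52.6 and 38.1 CPM across controls 1 to 4, against 16.4, 8.79, 20.6 and 16.6 CPM in grafts 1 to 4. Control 1 lay below graft 3, so the groups overlapped. It fell by 1.30 ± 0.33 log2 units (SE; adjusted p by edgeR = 0.0102), and was not past the threshold without controls 3 and 4 (-1.02, edgeR adjusted p = 0.0807). The summed adipocyte markers were also lowest in control 1 among the controls. Among the tested endothelial markers, Cdh5, Emcn, Erg, Kdr, Pecam1 and Tek were lowest there as well. Vwf, Esam and Tie1 were highest there. The part of these cell types in the fall of Tnfsf10 was not tested. Tnfrsf10b, the death domain receptor for this ligand, measured 9.21, 9.56, 12.6 and 11.6 CPM across the controls, against 17.2, 16.9, 16.5 and 19.3 CPM in the grafts, a rise of 0.70 ± 0.16 (SE; edgeR adjusted p = 0.00645). Its annotated span on GRCr8 overlaps that of Rhobtb2, and strand use in counting is not given, so some of its reads are uncertain.

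Faslg, the death ligand of cytotoxic T and NK cells, measured 0.300, 1.39, 0.502 and 0.560 CPM across the controls, against 3.28, 3.31, 5.12 and 2.76 CPM in the grafts. The lowest graft was above the highest control. It rose by 2.39 ± 0.47 log2 units (SE; adjusted p by edgeR = 0.00313), and by 3.03 without control 2. Its receptor Fas measured 18.6 to 26.0 CPM across the controls, against 16.0 to 21.4 CPM in the grafts and did not pass (95% interval from -0.52 to 0.21). Tnfrsf21 (death receptor 6) measured 24.7, 24.2, 37.8 and 34.0 CPM across the controls, against 44.8, 57.8, 49.4 and 55.2 CPM in the grafts, a rise of 0.78 ± 0.17 (SE; edgeR adjusted p = 0.00574). Tnfsf15, a ligand made by endothelial cells, measured 3.82, 6.17, 3.93 and 3.55 CPM across the controls, against 2.79, 2.70, 1.84 and 2.63 CPM in the grafts. All grafts were below all controls, as were 19.8% of all genes tested. It fell by 0.81 ± 0.28 (SE; edgeR adjusted p = 0.0401), and of the 8 fits with 1 library left out only those without control 1 and without control 4 kept it past the threshold (edgeR adjusted p = 0.133 without control 2). It was also lost without controls 3 and 4 (0.0604), with library totals (0.104), with upper-quartile factors (0.0525), with no filter (0.0798) and in the blocked fit (0.0749). Of 10 endothelial markers 9 were tested, of which 5 fell and 4 did not pass (Cdh5 at -0.23, Erg at -0.27, Kdr at -0.08 and Tie1 at -0.06 on the log2 scale). Their sum was 3240 to 4940 CPM across the controls and 1510 to 1850 CPM across the grafts, and Vwf alone made up 1321 to 3583 CPM and 393 to 649 CPM of it. Their part was not tested. The receptor Tnfrsf25 measured 2.61 to 8.17 CPM across the controls, against 2.83 to 7.28 CPM in the grafts and did not pass (95% interval from -0.96 to 0.92).

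**Figure D3:**
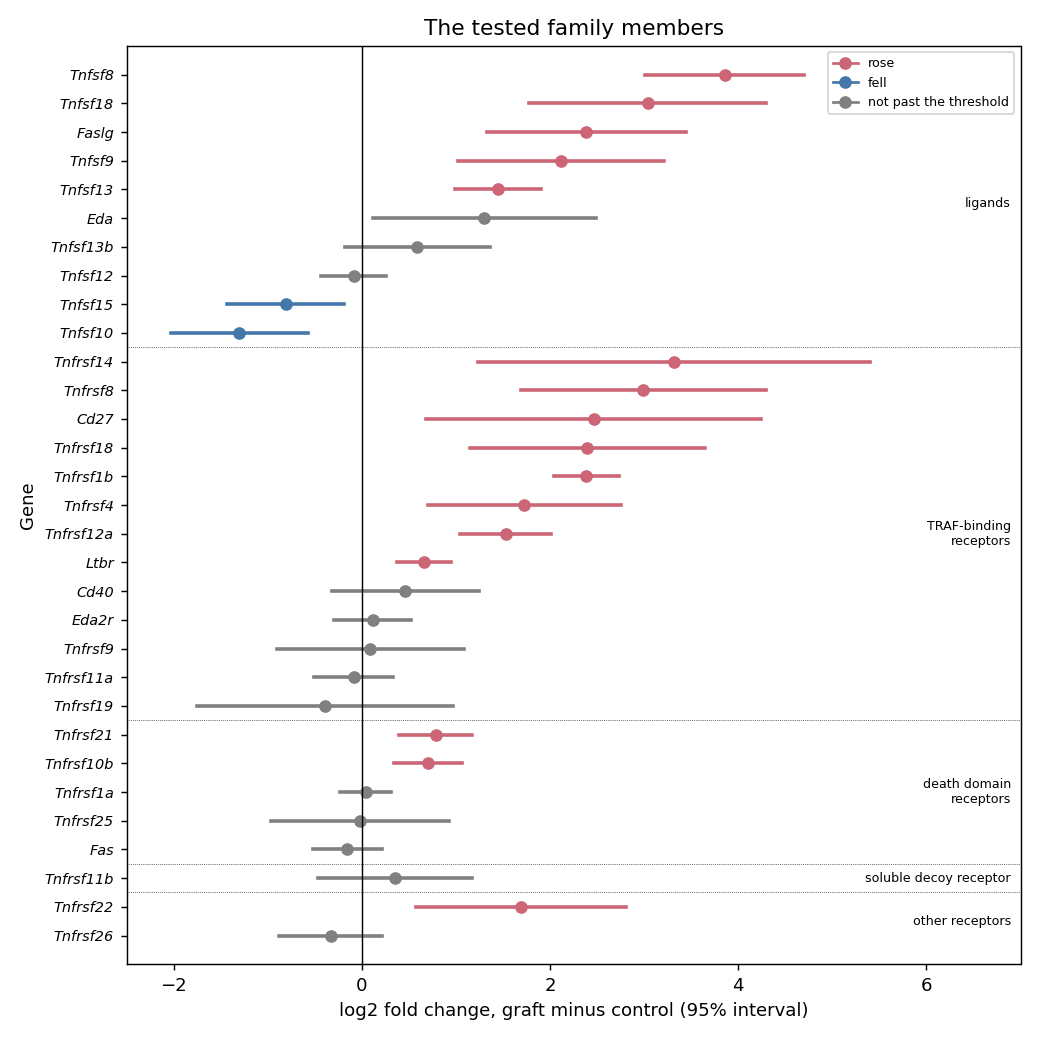
Log2 fold change, graft minus control, of the 31 tested members with 95% intervals from edgeR, grouped by role. Red points rose, blue points fell and grey points did not pass. The intervals are widest for Tnfrsf14 and Cd27 and lie above 0 for the 16 members that rose and for Eda, which did not pass after adjustment.

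Tnfsf13 and Tnfsf13b are known to sustain B and plasma cells. Tnfsf13 (APRIL) measured 9.44, 14.3, 14.6 and 14.9 CPM across the controls, against 27.7, 43.9, 33.0 and 40.2 CPM in the grafts. Every graft exceeded every control by a wide margin. It rose by 1.45 ± 0.20 log2 units (SE; adjusted p by edgeR = 0.000498). Tnfsf13 and Tnfsf12 are neighbours, and both overlap another annotated gene, Eif4a1l, on GRCr8, so the assignment of reads among them is uncertain. Tnfsf13b (BAFF) measured 3.07 to 5.69 CPM across the controls, against 4.36 to 9.36 CPM in the grafts and did not pass (log2 fold change 0.59, 95% interval from -0.18 to 1.36). Whether the 2 ligands differed in response was not tested. Their receptors were scarce: Tnfrsf13b had 20 counts over the controls and 40 over the grafts, Tnfrsf13c had 31 and 9, and Tnfrsf17 had 0 in the controls and 7, 1, 0 and 2 in grafts 1 to 4, so that graft 1 held most of its counts. Of the 10 B and plasma cell markers, 9 are in the table and 5 were tested, of which 1 fell and 0 rose. The 9 summed to 128 to 312 CPM across the controls, against 83.3 to 176 CPM in the grafts, with Cd79a at 0 throughout. Sdc1, which other cells also express, supplied most of this sum (123 to 290 CPM across the controls, 72.3 to 172 CPM across the grafts). Blk was at 1.02 on the log2 scale and did not pass. Mzb1 was not tested, and it measured at most 0.0996 CPM across the controls, against 0.300 to 1.93 CPM in the grafts.

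Among the ectodysplasin genes, known from hair and gland development, and the remaining receptors, Tnfrsf22 was the member past the threshold. Eda measured 2.02, 0.498, 0.753 and 0.560 CPM across the controls, against 2.55, 1.88, 4.16 and 1.41 CPM in the grafts. The groups overlapped through control 1, and the log2 fold change of 1.30 did not pass (edgeR adjusted p = 0.0731). It did pass without control 1 (2.00, edgeR adjusted p = 0.0102) and with library totals (edgeR adjusted p = 0.0462). Its receptor Eda2r measured 15.9 to 19.6 CPM across the controls, against 16.2 to 25.6 CPM in the grafts (95% interval from -0.29 to 0.52). Tnfrsf22, which resembles the TRAIL receptors but lacks a death domain, measured 1.50, 0.299, 0.837 and 2.43 CPM across the controls, against 3.76, 3.23, 5.04 and 3.53 CPM in the grafts. It rose by 1.69 ± 0.50 (SE; edgeR adjusted p = 0.0218), but not past the threshold without control 3 (edgeR adjusted p = 0.0613) or graft 3 (0.0558). Its neighbour Tnfrsf26 measured 16.4 to 33.3 CPM across the controls, against 17.0 to 23.0 CPM in the grafts and did not pass, except that it was lower without controls 3 and 4 (-0.70, edgeR adjusted p = 0.0256). Tnfrsf19 measured 3.82 to 4.85 CPM across the controls, against 3.94, 0.901, 7.20 and 0.899 CPM in the grafts, which lay on both sides of the controls (95% interval from -1.75 to 0.97).

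By the order of lowest coordinates on GRCr8, 10 pairs of members have no other protein-coding gene listed between them. This order misses genes that span a pair. The protein-coding gene LOC103692519 overlaps both Tnfrsf1b and Tnfrsf8, and Eif4a1l overlaps both Tnfsf13 and Tnfsf12. In Tnfrsf1b and Tnfrsf8, Tnfrsf4 and Tnfrsf18, and Tnfsf18 and Faslg both rose. Tnfsf15 fell while its neighbour Tnfsf8 rose.

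Genes that act with the family were read from 6 lists, which were chosen with earlier results of these data known. The lists held 49 genes, of which 48 are in the table and were tested. Of these 24 rose, 4 fell and 20 did not pass, beside 21.0% of all genes tested that rose and 21.3% that fell. The median log2 fold change of the 48 was 0.60. The share called over all genes was 42.3%, and the lists of TNF-induced proteins (3 of 7 called) and of death domain adaptors (5 of 10) lay near it. The lists held only 3 to 11 tested genes each, and whether the share of any list differed from it was not tested. Leaving out controls 3 and 4 gave 16 rises and 2 falls. Of 11 TRAF adaptors and ubiquitin ligases, 6 rose and 1 fell. Traf1, an adaptor raised by NF-kappaB, measured 2.99 to 7.79 CPM across the controls, against 11.3 to 18.6 CPM in the grafts, a rise of 1.42 ± 0.30 (SE). Birc3, a ligase that binds TRAFs, rose by 1.31 ± 0.26. Xiap, the caspase inhibitor, measured 234 to 339 CPM across the controls, against 134 to 174 CPM in the grafts, a fall with a log2 fold change of -0.90 ± 0.15. Of 10 death domain adaptors, kinases and regulators, 4 rose and 1 fell. Ripk3, the kinase of necroptosis, measured 4.43 to 7.12 CPM across the controls, against 15.6 to 27.2 CPM in the grafts, a rise of 1.92 ± 0.24 (SE). Bag4, which holds the TNF receptor silent, had a log2 fold change of -0.51 ± 0.16 and fell, and Mlkl, the membrane effector of necroptosis, was at 0.20 and did not pass.

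Of 10 genes that brake TNF signals or belong to the non-canonical NF-kappaB route, 5 rose and 1 fell. Over all genes tested, 21.0% rose and 21.3% fell. Tnfaip3, the inhibitor A20, rose by 0.96 ± 0.16 on the log2 scale (SE) and Tnip1, its partner, by 0.62 ± 0.11. Relb, a subunit of the non-canonical route, rose by 1.04 ± 0.20, Nfkbia was at -0.46 and did not pass, and Chuk, a kinase of the pathway, fell with a log2 fold change of -0.40 ± 0.11. Of 7 genes that cut or release ligands and receptors, 4 rose and 1 fell, beside the same shares over all genes. Rhbdf2, which guides the TNF-releasing protease Adam17 to the surface, measured 4.67 to 8.77 CPM across the controls, against 19.1 to 42.2 CPM in the grafts. It rose by 2.18 ± 0.30 (SE), while Adam17 rose by 0.64 ± 0.14 and Furin, a protease that cuts TWEAK, APRIL and other ligands, by 1.28 ± 0.17. Adam10 measured 79.8, 162, 182 and 138 CPM across the controls, against 50.3 to 62.2 CPM in the grafts, and fell by 1.29 ± 0.23. Of 7 genes named as TNF-induced proteins or their relatives, 3 rose and 0 fell (edgeR; 0 were lower at an unadjusted p under 0.05). Tnfaip8l2, a regulator of leukocytes that is a relative of Tnfaip8, measured 1.05 to 1.79 CPM across the controls, against 12.0 to 20.5 CPM in the grafts, a rise of 3.56 ± 0.27. Tnfaip8l3, another relative, rose by 0.98 ± 0.26 and Tnfaip2 by 0.90 ± 0.25 (SE), while Tnfaip6 was at -0.36 and did not pass.

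**Figure D4:**
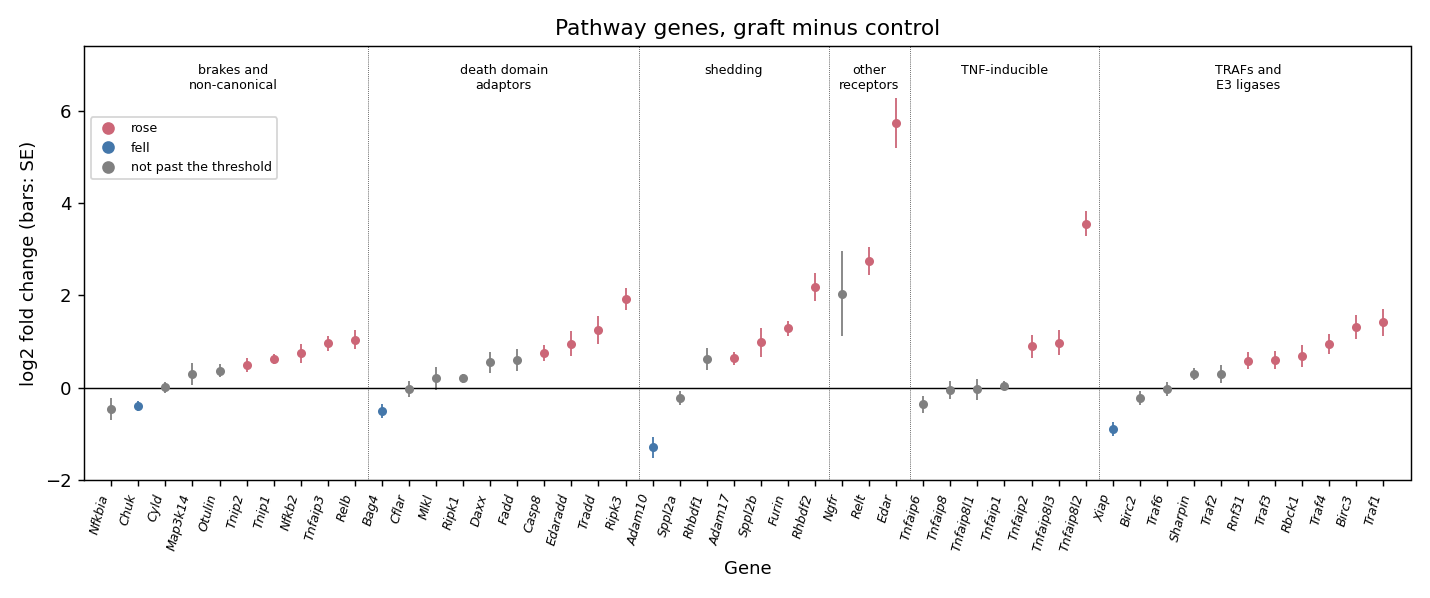
Log2 fold change with its SE, graft minus control, of the 48 pathway genes, in 6 lists divided by dotted lines. Edar has the largest rise at 5.72, against very few control counts, and Adam10 the largest fall at -1.29. Within every list some genes did not pass (grey).

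Of 3 receptors of the family that the naming rule does not reach, 2 rose. Edar, the receptor of ectodysplasin, measured 0.225, 0, 0.251 and 0 CPM across controls 1 to 4, against 8.62, 6.24, 7.44 and 10.1 CPM in grafts 1 to 4. The groups did not come near each other, and the rise was 5.72 ± 0.54 log2 units (SE; adjusted p by edgeR = 5.89e-05). The values of controls 1 and 3 correspond to 3 counts each, so the size of this rise rests on very few control counts. Relt measured 2.61 to 4.18 CPM across the controls, against 13.4 to 32.3 CPM in the grafts, a rise of 2.74 ± 0.31 (SE; edgeR adjusted p = 0.000151). Ngfr, the low-affinity neurotrophin receptor, measured 1.59 to 8.77 CPM across the controls, against 21.9, 1.88, 49.3 and 3.85 CPM in grafts 1 to 4, and did not pass (edgeR adjusted p = 0.102).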

How the data were processed

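Illumina RNA libraries were made from 4 vein grafts and 4 control veins, per the labels' protocols. The submitters' processing notes name HISAT2 2.0.4 and the Rnor_6.0 genome. Counter, annotation and strand use: not given in the sources used here. What the authors deposited is a table of raw counts per gene, in 8 columns named by sample title, and groups follow the titles. No source says that libraries came from separate animals, so p-values measure the spread between these libraries. Counting noise was exceeded between any 2 libraries of a group (chi-square per degree of freedom 24.5 to 119).

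The tests ran under R 4.3.3 and edgeR 4.0.16: filterByExpr (minimum count 10; 15464 genes kept), TMM scaling, glmQLFit and glmQLFTest, with Benjamini-Hochberg adjustment over all genes tested. The SE is the absolute log2 fold change over the square root of F, and 95% intervals use the test's degrees of freedom. CPM uses TMM-scaled library sizes and is not corrected for transcript length, so levels are not ranked between genes. For a gene with no counts in the controls, the fold is bounded by setting them to 3 counts in all. Such bounds cover counting error in the controls only and take the graft counts as exact. Ratios used log2 counts with 0.5 added and an exact permutation test over libraries, with the ratio that was not computed still counted in the adjustment. Alternatives used DESeq2 1.42.0, limma 3.58.1, other scalings and subsets of libraries. Scripts were tested on simulated data in which a small part of the genes changed, equally in both directions. That setting does not test the scaling or the error rate under changes as wide as those seen here.

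Every member is accounted for. Those past the threshold, at 10 CPM or more in either group, or in a pair with such a member are named with values, and each pathway list names its 2 strongest members by p, taking 1 rise and 1 fall if both passed. Other genes named were chosen after their values were seen. The members and lists were chosen with earlier results of these data known. Titles number both groups 1 to 4, but source names number them otherwise. Deviations from the group means of same-numbered libraries correlated at -0.075, 0.180, 0.071 and 0.051, so the numbers were not taken to pair them. In the operation as described, the control is the opposite jugular vein, so a graft and a control would come from the same animal. Which libraries would be pairs is not known. With 4 libraries per group and only the title numbers tried, this check cannot settle it. The main test and the permutation tests take the groups as unpaired, so their p-values leave any such pairing out.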

Additional observations from a re-analysis of the deposited data

Results flagged for a closer look

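In 9 of 62 groups of 4 libraries, 1 library lay far from the other 3 by Dixon's criterion, which chance meets in about 1 in 20 groups. Graft 3 was apart in 4 of them: Cd27 (17.0 CPM against 3.94 to 5.91 in the other grafts), Tnfrsf14 (40.3 against 10.5 to 15.4), Tnfrsf26 (23.0 against 17.0 to 17.7) and Tnfsf15 (1.84 against 2.63 to 2.79). Graft 1 was apart in Eda2r (25.6 CPM against 16.2 to 17.0). Control 1 was apart in Eda (2.02 CPM against 0.498 to 0.753) and Tnfsf13 (9.44 against 14.3 to 14.9). Control 2 was apart in Cd27 (4.18 CPM against 0.251 to 0.899) and Tnfsf15 (6.17 against 3.55 to 3.93).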

How the results depend on the processing

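Of the 18 members called, 12 kept their direction and call under all 16 alternatives: Tnfsf8, Tnfsf9, Tnfsf13, Tnfsf18, Faslg, Ltbr, Tnfrsf1b, Tnfrsf8, Tnfrsf10b, Tnfrsf12a, Tnfrsf18 and Tnfrsf21. No member called in either fit changed direction. Members that fell numbered 1 in place of 2 with library totals alone, upper-quartile factors, no low-count filter or the replicate block, all of them ligands. With controls 3 and 4 left out, 0 ligands and 2 receptors fell (Tnfrsf26 and Tnfrsf13c), 14 members rose and pathway falls numbered 2. Library totals alone gave 2 pathway falls and 2164 falls over all genes. With no filter, 18 members rose, among them Tnfsf14 and Cd70. The replicate block, fitted on numbers that the check did not support as pairs, left 16 members that rose. The cause of these changes was not tested.

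With 1 library left out in turn, 13 to 16 members rose and 1 to 2 fell, with 5 to 6 ligands and 8 to 11 receptors that rose and 1 to 2 ligands and 0 receptors that fell. Without control 1 or control 4, 2 members fell, and 1 fell with any of the other 6 libraries left out. Pathway genes gave 19 to 29 rises and 2 to 5 falls (2 without control 2 or control 4), and all genes 2845 to 4054 rises and 2742 to 3786 falls. The ratio of Tnfrsf1b to Tnfrsf1a differed by 2.21 to 2.47 and that of Tnfrsf12a to Tnfsf12 by 1.38 to 1.76 (both adjusted p = 0.0857, the smallest possible there). Without controls 3 and 4 they differed by 2.53 and 1.87 (adjusted p = 0.200). Members under 3 counts in a library are beyond what this depth resolves.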

Other observations

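Among the controls, members of lymphocytes were unequal. Tnfrsf13b measured 0.899, 0.797, 0 and 0 CPM across controls 1 to 4, and Tnfrsf13c 0.824, 1.69, 0.251 and 0 CPM. The B cell genes Ms4a1 (3.15, 5.58, 0.586 and 0.373 CPM) and Cr2 (10.2, 18.1, 4.02 and 1.49 CPM) were also higher in controls 1 and 2. Of the 7 dendritic cell markers, 5 rose. In the grafts, Flt3 (17.8 to 45.8 CPM), Clec9a (8.41 to 16.6 CPM) and Siglech (6.84 to 23.4 CPM) were highest in graft 3, the library that was also highest for Cd27 and Tnfrsf14, and in the controls they measured at most 3.01, 2.51 and 0.199 CPM. Xcr1 (7.20 CPM) and Batf3 (2.24 CPM) were also highest in graft 3 among the grafts. Ccr7 was highest in graft 2 (4.73 CPM, against 3.60 CPM in graft 3), and Zbtb46 in graft 1 (19.2 CPM), with a log2 fold change of -0.33 that did not pass. Foxp3, the transcription factor of regulatory T cells, measured 0 to 0.167 CPM in the controls and 1.09 to 2.85 CPM in the grafts. Mbp, a myelin gene that Schwann cells of nerves also use, measured 37.1 and 48.6 CPM for controls 1 and 2, against 647 and 592 CPM for controls 3 and 4.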
